A study of Mus musculus with 34 samples.

Results

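Methylation of the CpG islands of 47 genes known for their activity in germ cells was examined across mouse somatic tissues and cultured cells. The genes were taken by name and not by a rule on measured values. The list was chosen with earlier results of these data known. Probes carrying a current or older symbol of each gene were collected into islands. An island is a run of at least 3 probes with gaps of at most 500 bases. Of the 47 genes, 22 have at least 1 island scored on every array, 23 islands in all among 13616. Piwil1 and Piwil2 have 3 probes each that were measured together on 33 of 34 arrays, Rnf17, Stra8 and Dnd1 have 2 probes each, and 20 genes have no probe under any of their names. The 20 are Syce1, Tdrd9, Piwil4, Asz1, Sohlh1, Sohlh2, Nobox, Dmrtb1, Tex101, Tex14, Tex15, Mei1, Prdm9, Rec8, Nanos2, Dppa3, Zp3, Rpl10l, Tuba3b and Cyct.

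The arrays measured methylated DNA immunoprecipitation (mDIP), in which an antibody against 5-methylcytidine pulls methylated fragments out of sonicated DNA. Bound DNA (Cy5) and input DNA (Cy3) were hybridised together. Adult DNA was from 8 tissues of 3 month old mice, with 2 arrays each of colon, pancreas, brain, kidney, liver, lung, muscle and spleen. The study's methods give the strain C57Bl/6 for all mouse DNA. Colon and pancreas were from males and lung from females. In the other tissues replicate 1 was female and replicate 2 male. Embryos of 8.5, 9.5, 10.5, 11.5 and 12.5 days post coitum gave 1 array each. That of 12.5 days was female and the others were male. No sex is stated for the other samples. Undifferentiated ES cells were of the lines EB5, J1 and TT2, 1 array for each line. ES cells differentiated in vitro had 5 arrays. Embryoid bodies and the cells given retinoic acid are labelled as made from TT2, and endoderm (2 arrays) and mesoderm as made from EB5. The methods name J1 for the retinoic acid treatment. Endoderm and mesoderm came, by the methods, from a reporter subline of EB5 carrying tags at Gsc and Sox17, grown with Activin A for 6 days and sorted. The 2 teratomas are labelled as made from J1, while the methods name D3 and C4 cells injected into NOD-SCID mice, so host cells may be present. Ex vivo β cells and the cell lines Min6 and aTC had 1 array each. By the study's supplement, the β cells were sorted with antibodies against insulin. They came from transgenic mice with a Pdx1-GFP construct, aged 2 to 8 months and so not matched to the adult tissues. Neither germ cells nor gonads are among the samples, and no RNA was measured. The arrays were of 2 designs, 14 with 97651 probes and 20 with 88737, and on an array 62.4% to 99.9% of probes were well above background in the input. The number of arrays limits the precision, and where the labels do not say that replicates came from separate animals or cultures, a p-value measures only the spread between these arrays.

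Many germline genes have promoters rich in CpG that gain DNA methylation in the embryo around implantation and keep it in somatic cells, where it holds the genes silent. In ES cells a Polycomb complex that contains Mga, Max, L3mbtl2, Pcgf6 and E2f6 binds many of the same promoters, in part through the E-box and E2f motifs, and represses them alongside DNA methylation. The genes treated here act in the germ granule and piRNA pathway, which silences transposons, in the synaptonemal complex and cohesin that hold meiotic chromosomes, in recombination, in germ cell RNA regulation, and as germ cell forms of common proteins.

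Each probe's log10 ratio of bound over input was converted to a Z-score over its array, and the mean over the probes of an island is the island methylation score (IMS). An IMS of 0 is the average of the array and the unit is 1 SD of all probes, so an IMS ranks an island within its sample and is not a percentage of methylation. A score above 0.75 on every array of a group is here called methylated and below 0 on every array unmethylated. The values 0.75 and 0 are the study's cut-offs. The study's Z-scores took account of probe melting temperature, and it asked for 0.75 in at least 1 ES cell type. The scores here have no such step, so the scale may differ. Between the cut-offs, a lower share of methylated molecules and fewer methylated CpGs on each molecule cannot be told apart.

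The J1 array stood apart from the other ES cells. Over the 13616 islands the scores of its scanner file correlated with those of the 16 adult arrays at r = 0.86 to 0.97, highest with pancreas replicate 2, and with EB5 and TT2 at 0.79 and 0.80. EB5 and TT2 correlated with each other at 0.88 and with no adult array above 0.83. Its scanner log ratios also correlated with the processed values deposited for it at r = 0.11, where the other 33 arrays gave 0.89 to 0.99. The J1 values deposited correlated with those of any other array at 0.10 to 0.24 over the 5914 islands scored in that table. Comparisons with undifferentiated ES cells are therefore given with and without J1.

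The sequences that these islands hold can be seen in the windows of 300 bases around 6 start sites, from 250 bases before to 50 after, as annotated by RefSeq on GRCm38.p6. Sycp2, Ddx4, Dazl and Sycp3 had high adult scores, Smc1b an intermediate one, and Stag3 the lowest of the islands at a start. They lie at chr2:178407609-178407908 (Sycp2, minus strand), chr13:112652261-112652560 (Ddx4, minus strand), chr17:50293571-50293870 (Dazl, minus strand), chr10:88459337-88459636 (Sycp3, plus strand), chr15:85131908-85132207 (Smc1b, minus strand) and chr5:138280259-138280558 (Stag3, plus strand). Each is written 5′ to 3′ along the gene, with every CpG in capitals. The coordinates in the array files are of a build that is not named, so windows and islands were matched by gene alone.
Sycp2: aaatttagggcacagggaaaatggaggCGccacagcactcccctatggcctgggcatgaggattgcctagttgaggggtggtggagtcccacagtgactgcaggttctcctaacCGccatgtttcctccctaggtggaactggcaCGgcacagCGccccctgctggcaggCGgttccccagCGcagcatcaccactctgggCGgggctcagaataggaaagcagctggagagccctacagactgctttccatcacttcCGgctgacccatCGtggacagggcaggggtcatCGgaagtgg
Ddx4: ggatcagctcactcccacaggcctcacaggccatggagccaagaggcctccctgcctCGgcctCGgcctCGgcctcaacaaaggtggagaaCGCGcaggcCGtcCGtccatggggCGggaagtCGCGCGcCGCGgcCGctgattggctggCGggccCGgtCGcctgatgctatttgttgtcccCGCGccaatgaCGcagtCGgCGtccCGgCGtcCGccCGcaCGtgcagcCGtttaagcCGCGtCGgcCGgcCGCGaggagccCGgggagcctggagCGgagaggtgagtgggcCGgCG
Dazl: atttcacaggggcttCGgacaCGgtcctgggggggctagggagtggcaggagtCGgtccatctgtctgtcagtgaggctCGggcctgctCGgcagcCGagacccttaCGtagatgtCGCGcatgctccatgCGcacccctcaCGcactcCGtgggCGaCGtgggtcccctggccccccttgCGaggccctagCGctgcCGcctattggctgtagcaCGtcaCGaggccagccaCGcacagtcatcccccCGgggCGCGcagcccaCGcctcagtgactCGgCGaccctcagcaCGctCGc
Sycp3: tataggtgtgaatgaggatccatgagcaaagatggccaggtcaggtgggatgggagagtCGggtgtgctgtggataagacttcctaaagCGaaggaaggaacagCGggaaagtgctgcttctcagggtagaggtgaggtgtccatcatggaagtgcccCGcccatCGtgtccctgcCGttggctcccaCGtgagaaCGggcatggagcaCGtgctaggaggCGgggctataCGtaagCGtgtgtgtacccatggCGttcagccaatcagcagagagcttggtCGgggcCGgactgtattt
Smc1b: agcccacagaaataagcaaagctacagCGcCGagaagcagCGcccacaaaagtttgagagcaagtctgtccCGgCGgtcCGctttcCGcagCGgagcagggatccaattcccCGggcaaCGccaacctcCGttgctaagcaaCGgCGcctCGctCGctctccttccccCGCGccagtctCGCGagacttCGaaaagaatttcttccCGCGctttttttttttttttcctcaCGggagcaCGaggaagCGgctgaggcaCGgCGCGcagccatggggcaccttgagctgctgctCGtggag
Stag3: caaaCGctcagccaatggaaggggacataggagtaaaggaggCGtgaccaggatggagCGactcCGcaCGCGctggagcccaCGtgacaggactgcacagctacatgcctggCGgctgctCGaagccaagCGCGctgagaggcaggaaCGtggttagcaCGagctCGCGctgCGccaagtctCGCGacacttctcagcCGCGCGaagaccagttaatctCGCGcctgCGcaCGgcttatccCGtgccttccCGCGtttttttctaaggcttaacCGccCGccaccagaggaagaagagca

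The windows of Sycp2 and Sycp3, with 10 and 15 CpGs, were poorer in CpG than those of Smc1b and Stag3, with 29 and 30, although both scored higher in adult tissue. Ddx4 had 38 CpGs and Dazl 28. Over the 17 genes that have both a window and a scored island at the start, Spearman's rho between CpG count and adult mean score was -0.31 and Pearson's r was -0.26, given as a description, since the genes share arrays and window size. Their median CpG count was 22, against 7 over all 32851 windows. In all, 40 of the 47 genes have a window in the RefSeq table.

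The E-box CACGTG, which reads the same on both strands, was in 16 of the 40 windows (40%), and in 11 of the 17 with a scored island at the start (64.7%). It was in 7.15% of all windows, and in 10.8% of the 12820 windows that hold 10 to 38 CpGs, the range of the 17. Ddx4 and Stag3 have 1 copy each, Sycp3 has 2, and Sycp2, Dazl and Smc1b have none. The other genes of the 11 are Boll, Brdt, Hormad1, Mael, Slc25a31, Stk31, Sycp1 and Tdrd1. The E2f motif GGCGGGA, searched on both strands, was in 9 of the 40 (22.5%) and in 5 of the 17 (29.4%), against 11.3% of all windows and 21.9% of those with 10 to 38 CpGs. These are matches of letters, and binding was not measured.

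In adult tissue 16 of the 23 islands were methylated on all 16 arrays, where 7.37% of all 13616 islands were. Of the 8646 islands with a probe annotated at a promoter, 103 (1.19%) were. The median of the adult means was 2.76 for the 23 islands, -0.21 over all islands and -0.27 over those with a promoter probe. Only the Figla island was unmethylated on every adult array, against 29.8% of all islands. The histogram of adult means shows where the 23 lie.

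**Figure D1:**
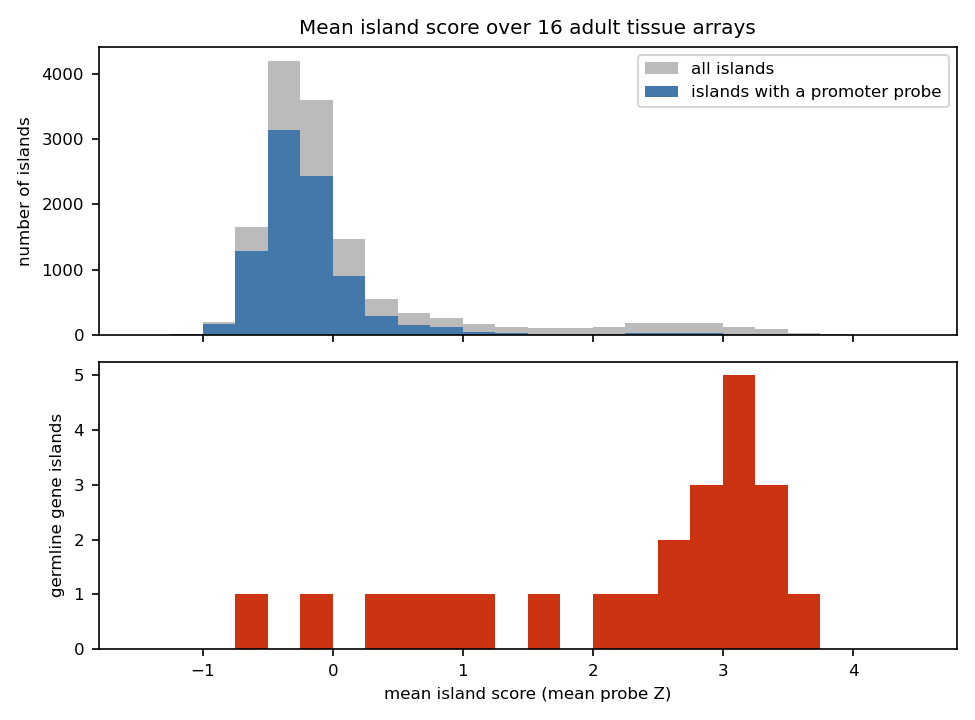
Mean IMS over the 16 adult arrays (x axis, mean probe Z) as the number of islands in bins of 0.25 (y axes), for all 13616 islands and those with a promoter probe (upper panel) and the 23 germline gene islands (lower panel). Most islands lie near -0.21, while the germline islands lie mostly above 2.

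The islands differed by position. Of the 23, 19 lie within 1000 bases of the start annotated in the files, and 15 of these 19 were methylated on every adult array. The other 4 are the islands of Mov10l1, at -2853 to -2309 bases from the start in a promoter shared with Mlc1, of Nanos3, at -7664 to -6964, of Figla, at 11361 to 12088, and an upstream island of Sycp2, at -7106 to -5795. The Sycp2 upstream island carries an older name of Sycp2 in one annotation of the array and the names Ppp1r3d and 9030418K01Rik in the other, so it may not belong to Sycp2. Of these 4, only Mov10l1 was methylated throughout. The low scores of Nanos3 and Figla are therefore not scores of their start sites. At Stag3, 1 of 9 probes carries its name and the island is shared with the divergent gene Gpc2.

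In the synaptonemal complex, Sycp2 and Sycp3 form the lateral elements and Sycp1 the transverse filaments that link paired chromosomes. The island at the start of Sycp2 (chromosome 2, positions 178336579 to 178337105 of the files, whose build is not named) had the highest adult mean of the 23, 3.52 ± 0.39 (SD, n = 16), with a lowest array of 2.80, a median of 3.52 and a highest of 4.35. Sycp1 ranged from 2.58 to 4.26 with a median of 3.19 and Sycp3 from 2.41 to 3.53 with a median of 3.01. All 3 start islands stood above 2.4 in every adult tissue, and the Sycp2 upstream island ran from 0.19 to 1.32.

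The germ granule and piRNA genes were nearly as uniform. Ddx4, the Vasa RNA helicase, had adult scores of 2.71 to 4.29 (median 3.55). Mov10l1, a helicase that feeds precursors into piRNA production, ran from 2.85 to 3.82 (median 3.34), Mael, which acts in transposon silencing, from 2.35 to 3.17 (median 2.77) and the Tudor protein Tdrd1 from 2.13 to 3.52 (median 2.60). Stk31 ran from 2.12 to 3.63 (median 2.94). Tdrd6, a Tudor protein of the chromatoid body, was the exception at a start site, from -0.029 on a brain array to 1.51 on a colon array, with a median of 0.57. Its single highest probe is the one before the start, with an adult mean of 1.35, and the probes inside the gene averaged 0.29 to 0.85.

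The same held for probes too few to score. Means of the available probes, 2 or 3 a gene and each within 1000 bases of the start, ran over the 16 adult arrays from 2.24 to 3.36 for Piwil1 and from 2.23 to 2.96 for Piwil2, which encode Piwi proteins that carry piRNAs. Rnf17 ran from 2.30 to 3.23, Stra8, needed for entry into meiosis, from 2.07 to 3.24, and Dnd1, an RNA-binding protein of primordial germ cells, from 1.18 to 2.92. None of the 5 fell to 0.75 on an adult array.

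Among the RNA-binding regulators, Dazl, which controls translation in germ cells, had adult scores of 2.64 to 3.92 (median 3.12). Boll, of the same DAZ family, was lower and more variable, from 0.73 on the array of liver replicate 1 to 2.70, with a median of 2.17, and that array alone kept it from being methylated throughout. Nanos3, which keeps primordial germ cells alive, ran from -0.40 to 0.31 at its distant island.

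Among genes of meiotic recombination, Spo11, which makes the double-strand breaks, ran from 2.06 to 3.17 (median 2.67), and Hormad1, of the chromosome axis, from 2.01 to 3.31 (median 2.90). Dmc1, the meiotic recombinase, was lower, from 1.05 to 2.50 (median 1.56). Of the meiotic cohesin subunits, Smc1b ran from 0.56 to 1.74 and Stag3 from 0.0039 to 0.63. The plot of all arrays shows the step from the synaptonemal and piRNA genes down to the cohesins.

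**Figure D2:**
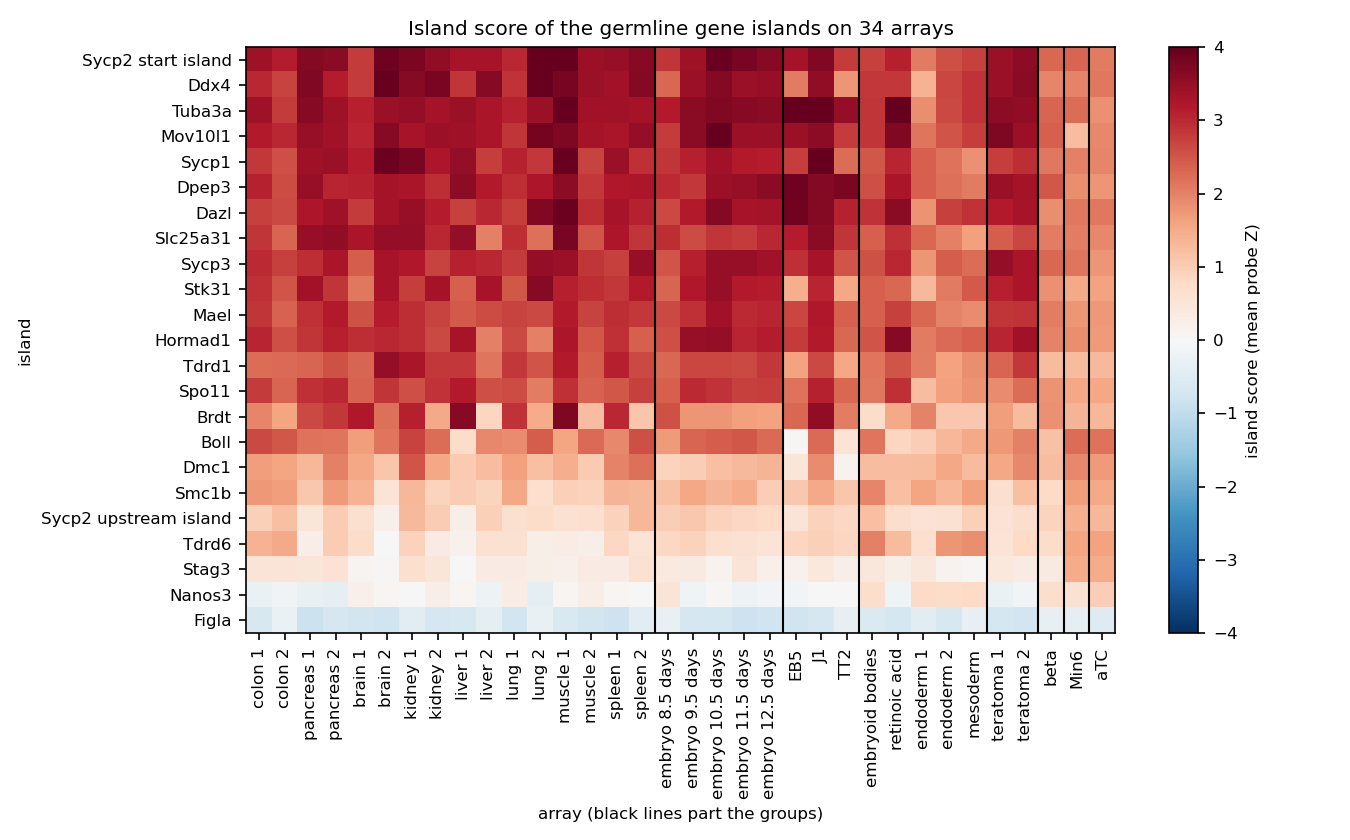
IMS of the 23 islands (rows, ordered by adult mean) on the 34 arrays (columns, black lines between groups), with colour giving the mean probe Z. The upper islands are high on all arrays, and Stag3, Nanos3 and Figla are low on all but a few.

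The germ cell forms of common proteins include Tuba3a, a tubulin of the testis, from 2.79 to 4.12 (median 3.38), and Slc25a31, an ADP/ATP carrier of the testis, from 2.02 to 3.80 (median 3.13). The peptidase gene Dpep3 ran from 2.60 to 3.59 (median 3.18). Brdt, a bromodomain protein of the testis, had the widest adult range, from 0.85 to 3.73, and Figla, an oocyte transcription factor, ran from -0.86 to -0.26 at its distant island.

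Brdt rests on 3 probes. One ran from 2.95 to 4.11 on the adult arrays and was well above background in the input on all 16. The others ran from -0.16 to 3.27 and from -1.07 to 3.86, and their inputs were well above background on 4 and on 8 of the 16. The island averaged 2.86 on the 10 adult arrays of the larger grid (97651 probes) and 1.40 on the 6 of the smaller grid (88737 probes), so its spread moved with the array design and the dim probes, and their part in it was not tested.

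Within an island the probes also differed. Along Dazl the adult mean fell from 4.54 at the probe 15 bases after the start to 0.67 at 984 bases, whereas along Boll it rose from 0.32 at 277 bases before the start to 3.31 at 567 bases after it. The 6 probes of Sycp3 lay between 2.83 and 3.29. An island mean therefore depends on which stretch the probes cover, as the profiles of probe scores show.

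**Figure D3:**
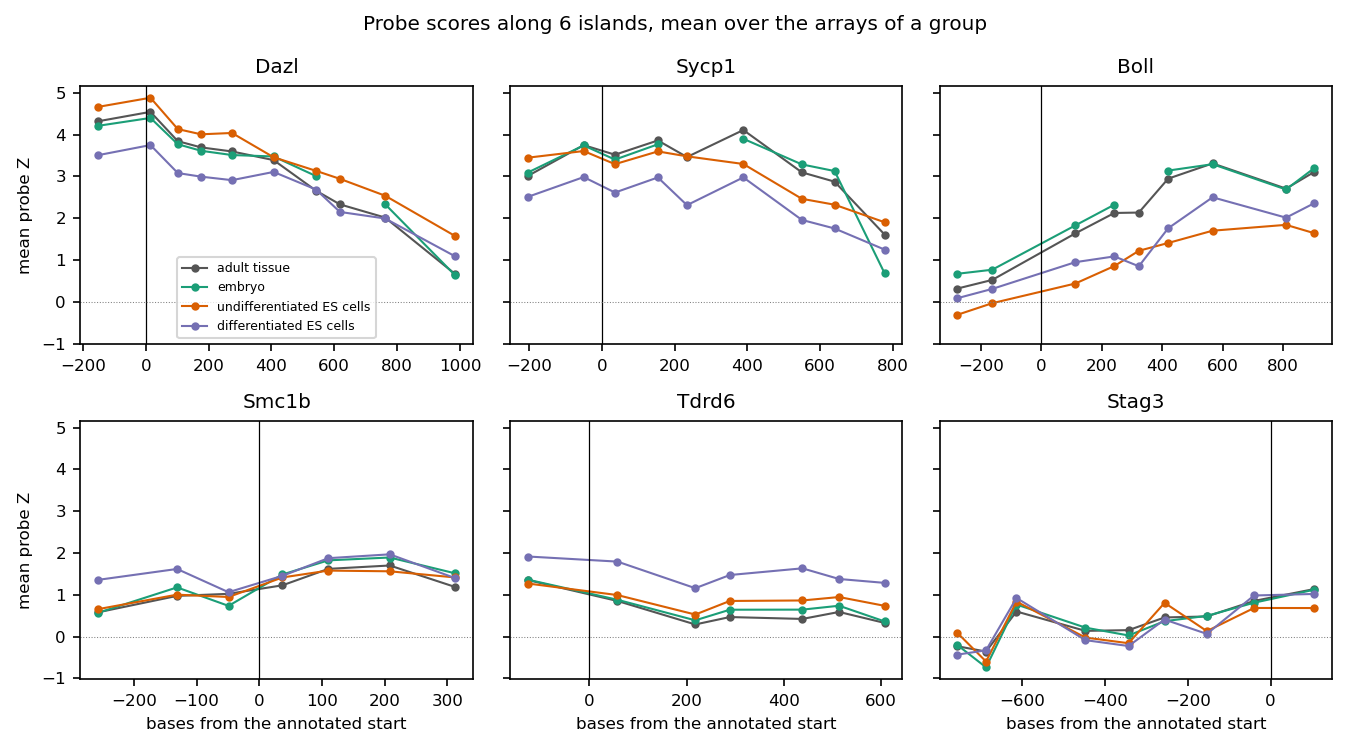
Mean probe Z (y axis) against distance in bases from the start annotated in the files (x axis; the vertical line is the start) for 6 islands, with 1 line for each of 4 groups (adult, embryo, undifferentiated and differentiated). A gap marks a probe on no array of a group. A probe on some arrays of a group is averaged over those alone. Dazl falls and Boll rises along the gene, while all 7 probes of Tdrd6 are highest in differentiated ES cells.

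No difference among the 8 adult tissues passed the test at these islands. The limma F test over tissues called 0 of 23 at a Benjamini-Hochberg adjusted p under 0.05, and 0 had an unadjusted p under 0.05, where 11 of all 13616 islands (0.0808%) were called and 3.95% had an unadjusted p under 0.05. Tdrd6 had the lowest unadjusted limma p, 0.053, with tissue means from 0.27 in muscle to 1.45 in colon. The widest spread of tissue means, 1.22, was that of Boll, from 1.33 in liver to 2.56 in colon, and the narrowest, 0.31, that of Sycp3. With 2 arrays per tissue, the same test on simulated data recovered 0% of differences of 1 between tissues and 85.5% of differences of 2, so differences of about 1 were not detectable with this design.

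Genes of related function outside the 47 were looked at in 3 lists. Of all 13616 islands, 7.37% were methylated and 29.8% unmethylated on every adult array. Of 20 genes that silence germline promoters or act on DNA methylation, 18 have a scored island. Of these, Ehmt2 (2.76 ± 0.26, n = 16), a histone H3K9 methyltransferase, alone was methylated on every adult array. Its 3 probes are all annotated inside the gene. Another 6 were unmethylated, Max (-0.53 ± 0.19) lowest. Of 22 somatic relatives of the 47 genes, 19 are scored, 0 were methylated and 7 unmethylated. Slc25a4, the carrier of muscle and heart, had the lowest mean of the 19 (-0.47 ± 0.22), though not below 0 on every array. The highest, Stag2 (0.97 ± 0.94), the somatic counterpart of Stag3, is X-linked, as are Slc25a5 (0.82 ± 1.29), Rpl10 (0.77 ± 1.16) and Smc1a (0.48 ± 1.28), all widely spread over these tissues of both sexes. Of 65 other genes with germline roles, 34 are scored, 11 methylated and 5 unmethylated. This was the list with a larger share methylated than over all islands. Hsf5 (3.36 ± 0.35) and Tex11 (3.12 ± 0.49) had the highest means of the 34, and Tfap2c (-0.53 ± 0.38), not below 0 on every array, and Ddx25 (-0.50 ± 0.13) the lowest.

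Whether embryos already carry this methylation was asked by setting the 5 embryo arrays against adult tissue. In the embryos 19 of the 23 islands were above 0.75 on every array, where 8.53% of all islands were. limma called 0 of 23 between embryos and adult tissue, and 0 had an unadjusted p under 0.05, where 8.64% of all islands were called. Dazl scored 2.65, 3.18, 3.66, 3.29 and 3.31 from day 8.5 to day 12.5, and Mael 2.64, 2.92, 3.36, 2.98 and 3.04. Both lay inside or just above the adult range on every day. The difference from adult tissue was 0.08 ± 0.21 (SE) for Dazl and 0.19 ± 0.14 for Mael.

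The embryo of 8.5 days stood somewhat apart. It gave the lowest score of the 5 in Ddx4 (2.29, the others 3.43 to 3.66), in Stk31 (2.34, the others 3.14 to 3.49) and in Boll (1.69, the others 2.28 to 2.47), and the highest in Brdt (2.54, the others 1.62 to 1.77). The 1004 islands methylated on every adult array had a median of 2.40 on it and of 2.68 to 2.94 on the other embryo arrays. It shared its slide and scan day with the TT2 array, whose part in this was not tested.

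With all 3 lines, 17 of the 23 islands were above 0.75 on every undifferentiated array, where 7.36% of all islands were. limma called 0 of 23 against adult tissue, with 7 at an unadjusted p under 0.05 and 2.30% of all islands called, and 0 of 23 against embryos, with 4 at an unadjusted p under 0.05 and 3.03% of all islands called. Several islands were as high in each line as in adult tissue. Sycp3 scored 2.94 in EB5, 2.52 in TT2 and 3.30 in J1. Dazl scored 3.86, 3.08 and 3.69 in the same order, and Tuba3a 4.18, 3.51 and 3.97. All 3 lay inside or just above the adult range.

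Without J1, limma called 5 of the 23 lower in EB5 and TT2 than in adult tissue and 0 higher, where 3.87% of all islands were lower, 4.58% higher and 8.45% called in either direction. These 5 were Ddx4, Stk31, Tdrd1, Boll and Dmc1. Against embryos it called 4 lower, the same genes without Dmc1, where 3.71% of all islands were lower and 5.92% called in all. Both comparisons use the same 2 ES cell arrays. Over the 16 islands methylated on every adult array the median difference from adult tissue was -0.28, and over all 1004 such islands it was -0.37.

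In these genes both lines fell below every adult array. Boll scored 0.045 in EB5, 0.53 in TT2 and 2.27 in J1, and was 1.81 ± 0.33 (SE) lower in EB5 and TT2 than in adult tissue (limma adjusted p 0.00036). Dmc1 scored 0.47, 0.14 and 1.88 in the same order and was 1.26 ± 0.25 lower (limma adjusted p 0.0012). Stk31 scored 1.45, 1.54 and 3.04 and was 1.45 ± 0.30 lower (limma adjusted p 0.0016).

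Ddx4, a helicase, and Tdrd1, which binds Piwi proteins, fell but stayed above 0.75 in both lines, as Stk31 did. Ddx4 scored 2.08 in EB5, 1.77 in TT2 and 3.56 in J1, against a lowest adult array of 2.71, a difference of -1.49 ± 0.36 without J1 (limma adjusted p 0.0075). Tdrd1 scored 1.61, 1.54 and 2.63, against a lowest adult array of 2.13, a difference of -1.11 ± 0.26 (limma adjusted p 0.0057). Sycp3 and Dazl, with differences of -0.30 ± 0.26 and 0.33 ± 0.31 without J1, did not pass. On every one of these 5 islands J1 lay inside the adult range.

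Some of the probes too few to score went the same way. The 2 probes of Dnd1 averaged -0.57 in EB5, -1.23 in TT2 and 1.68 in J1, and their lowest adult array was 1.18. The Rnf17 probes averaged 1.74, 1.43 and 2.81, and those of Piwil2 1.39, 1.49 and 3.10, against lowest adult arrays of 2.30 and 2.23. Stra8, with 3.20, 2.25 and 3.02, and Piwil1, with 3.03, 2.60 and 2.76, lay inside the adult range in all 3 lines. These were not tested. The values by array are plotted for 8 islands.

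**Figure D4:**
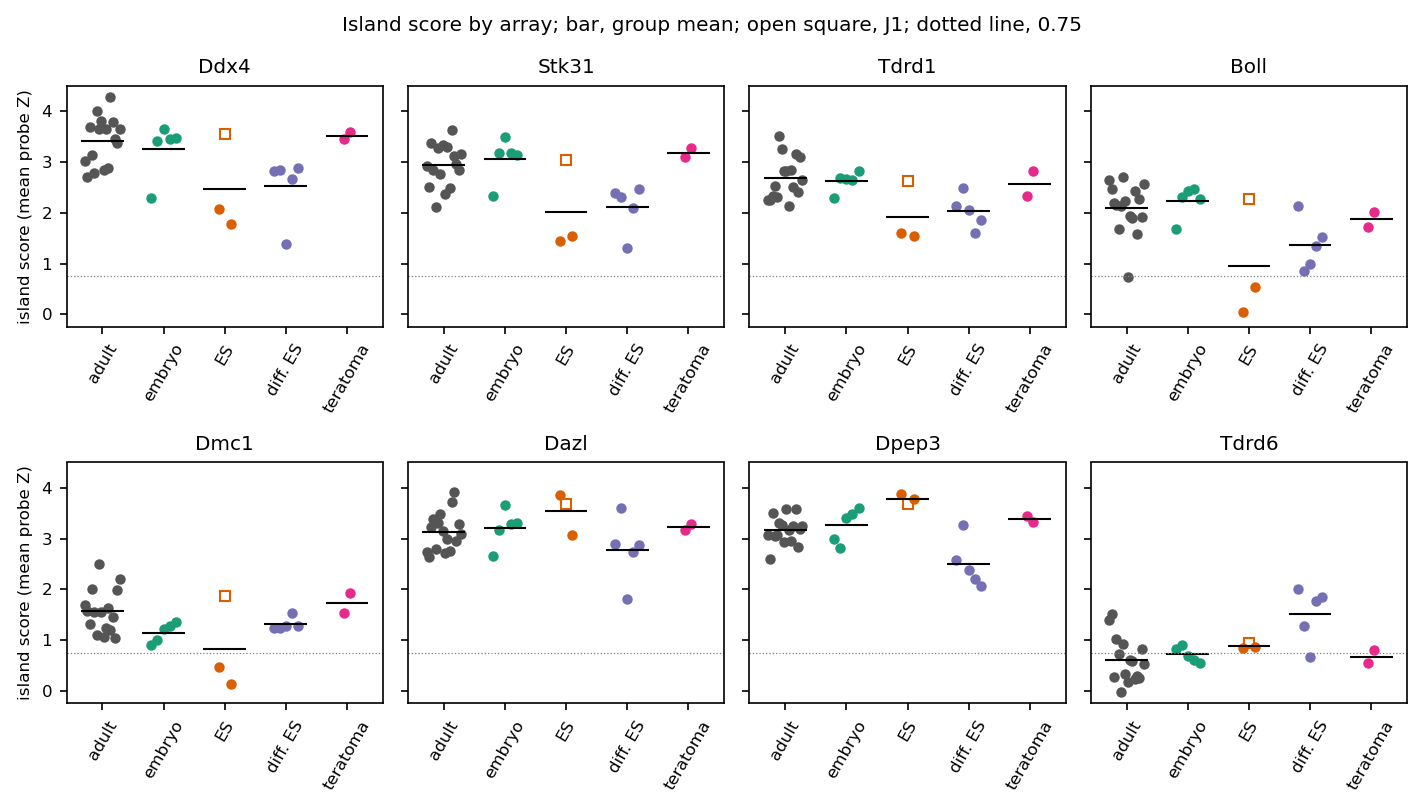
IMS (y axis, mean probe Z) of 8 islands on each array of 5 groups (adult tissue to teratomas, left to right), with a bar at the group mean, an open square for J1 and a dotted line at 0.75. In Ddx4, Stk31, Tdrd1, Boll and Dmc1 the EB5 and TT2 points lie below all adult points, and J1 lies among them.

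Of the comparisons with adult tissue, that of ES cells differentiated in vitro gave the most calls. limma called 15 of the 23 islands between the 5 differentiated ES cell arrays and adult tissue, 13 lower (8.73% of all islands were lower) and 2 higher (14.4% of all were higher), where 23.2% of all islands were called. The 13 lower islands were those of Ddx4, Stk31, Mael, Tdrd1 and Mov10l1 of the piRNA group, Sycp1, Sycp3 and the start of Sycp2, Spo11, Boll, Dpep3, Tuba3a and Slc25a31. The 2 higher were Tdrd6 and Nanos3. All 13 were still above 0.75 on every differentiated array, and 17 of the 23 were, against 9.91% of all islands.

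Islands outside the germline genes fell too. Of the 1004 islands methylated on every adult array, 41.8% were called lower in differentiated ES cells, and 12 of the 16 germline islands among them were. The median difference was -0.66 for the 16, -0.46 for the 1004 and -0.0099 over all islands. As log2 ratios centred on each array's median, the medians were -1.45, -1.14 and -0.087. The 1004 were picked as high on the adult arrays that also enter the difference, and the part of that choice in the decrease was not tested. Of the related lists, the silencing genes had 1 island called higher (E2f6, 0.36) and 1 lower (Ehmt2, -0.54), the somatic relatives 0 higher and 4 lower, and the other germline genes 8 higher and 8 lower. The plot of differences sets each island against both medians.

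**Figure D5:**
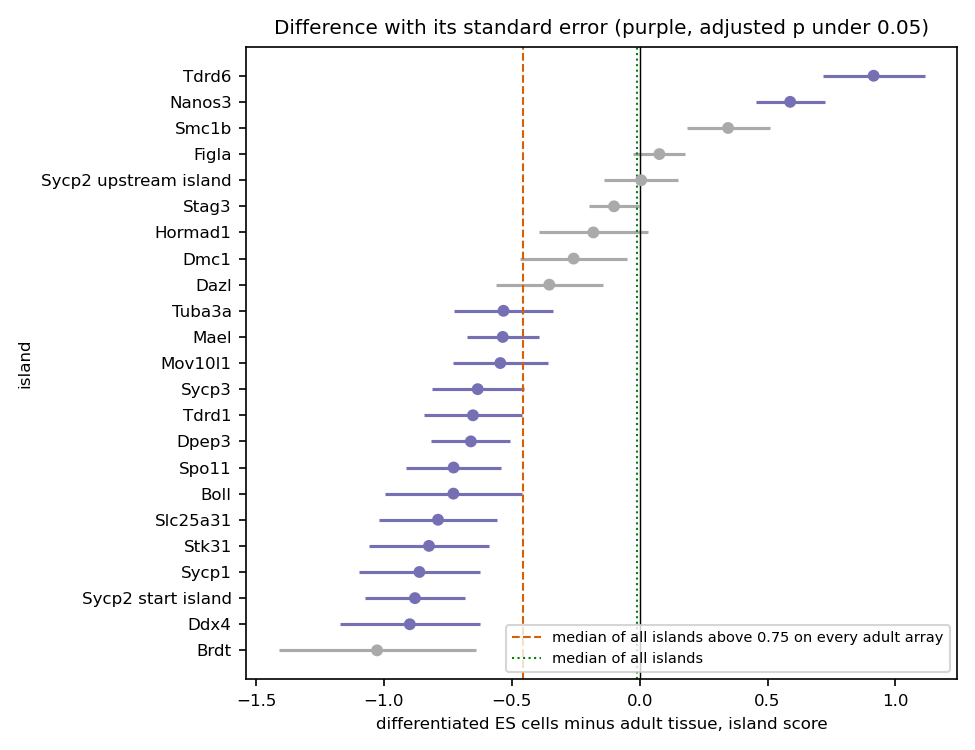
Difference in IMS between the 5 differentiated ES cell arrays and the 16 adult arrays (x axis) for each of the 23 islands (y axis), with bars of 1 SE; purple marks a limma adjusted p under 0.05. The dashed line is the median of the 1004 islands methylated on every adult array (-0.46) and the dotted line that of all islands (-0.0099); Tdrd6 and Nanos3 alone are called to the right of 0.

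Ddx4 had the largest decrease of those called. It scored 2.82 in embryoid bodies, 2.84 after retinoic acid, 1.40 and 2.67 in endoderm and 2.88 in mesoderm. The endoderm arrays lay below every adult array and the other 3 among the lower ones. The difference from adult tissue was -0.90 ± 0.27 (SE, limma adjusted p 0.016), and without endoderm replicate 1 it was -0.62 and not called (limma adjusted p 0.11).

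The Sycp2 start island scored 2.74 in embryoid bodies, 3.10 after retinoic acid, 2.09 and 2.57 in endoderm and 2.74 in mesoderm, a difference of -0.88 ± 0.20 (limma adjusted p 0.0013). Sycp1 scored 2.47, 3.04, 2.38, 2.17 and 1.84 in the same order, a difference of -0.86 ± 0.24 (limma adjusted p 0.0080). In both, the retinoic acid array was the highest of the 5 and lay inside the adult range.

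Stk31 scored 2.40 in embryoid bodies, 2.31 after retinoic acid, 1.30 and 2.09 in endoderm and 2.47 in mesoderm, a difference of -0.82 ± 0.23 (limma adjusted p 0.010) that was -0.62 without endoderm replicate 1 (limma adjusted p 0.065). Slc25a31 scored 2.38, 2.92, 2.30, 2.00 and 1.65, a difference of -0.79 ± 0.23 (limma adjusted p 0.013) that was -0.64 without mesoderm (limma adjusted p 0.071). Each of these 2 calls thus rested on 1 array. The other 8 lower islands differed by -0.53 (Tuba3a) to -0.73 (Boll and Spo11), with limma adjusted p from 0.0022 to 0.049.

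Dazl, Hormad1 and Dmc1 were not called, with differences of -0.35 ± 0.21, -0.18 ± 0.21 and -0.26 ± 0.21. Dazl scored 2.89, 3.61, 1.81, 2.75 and 2.88 in the same order of arrays, from below the lowest adult array to well inside the range. Brdt, with the largest difference of all, -1.03 ± 0.39, missed the threshold (limma adjusted p 0.053).

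Tdrd6 went the other way. It scored 2.02 in embryoid bodies, 1.28 after retinoic acid, 0.68 and 1.77 in endoderm and 1.86 in mesoderm, against an adult median of 0.57. Of the 5 arrays, 3 were above the highest adult array, colon replicate 2 at 1.51. The difference was 0.91 ± 0.20 (limma adjusted p 0.0011), and 0.93 ± 0.33 as centred log2 ratios, where it missed the threshold (limma adjusted p 0.055). The distant Nanos3 island scored 0.72, -0.18, 0.75, 0.74 and 0.81, with the retinoic acid array alone inside the adult range, a difference of 0.59 ± 0.14 (limma adjusted p 0.0018).

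Against the 3 undifferentiated arrays, limma called 2 of the 23 islands lower in differentiated ES cells and 0 higher, where 1.92% of all islands were lower, 3.51% higher and 5.43% called in either direction. Dpep3 scored 3.89 in EB5, 3.78 in TT2 and 3.68 in J1, and 2.59, 3.28, 2.38, 2.20 and 2.08 in the differentiated cells. The groups did not overlap, and the difference was -1.28 ± 0.22 (limma adjusted p 0.0010). The call was lost in the authors' deposited values (-0.33, limma adjusted p 0.54), with only the groups compared in the fit (limma adjusted p 0.093) and with slide as a fixed block (-1.85, limma adjusted p 0.088). In the deposited values Dpep3 scored 3.93 in EB5, 3.64 in TT2 and 1.16 in J1, whose part in this loss was not tested. By the methods' t-test Dpep3 was not called either. Tuba3a scored 2.87, 3.97, 1.84, 2.66 and 2.90 in the differentiated cells, with the retinoic acid array as high as the ES cells, a difference of -1.04 ± 0.27 (limma adjusted p 0.022). This call was lost with only the groups compared (limma adjusted p 0.26), slide as a fixed block (limma adjusted p 0.13), centred log2 ratios (limma adjusted p 0.16) and the median of probes (limma adjusted p 0.11), and without J1 and without EB5 (-0.90), endoderm replicate 1 (-0.79) or endoderm replicate 2 (-0.99).

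Without J1 the 2 called were Dpep3 (-1.33 ± 0.26) and Dmc1, which was higher by 1.00 in differentiated than in undifferentiated cells, where 3.58% of all islands were called, 2.66% higher and 0.925% lower. Tuba3a then had a limma adjusted p of 0.077. Boll and Ddx4, low in EB5 and TT2, scored higher in embryoid bodies than in TT2, by 1.60 and 1.04, a pair chosen after their values were seen. Changes from the labelled parent line could be set out array by array, without a test. In endoderm replicate 1, endoderm replicate 2 and mesoderm 15, 13 and 13 of the 23 islands lay below EB5, where 60.9%, 54.2% and 58.3% of the 1004 islands methylated on every adult array did. In embryoid bodies and retinoic acid treated cells 9 and 5 lay below TT2, where 46.2% and 15.0% of the 1004 did. The 23 include islands that are not methylated on every adult array, so counts and shares are of unlike sets.

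The 2 teratomas scored like adult tissue at these islands. All of the 17 islands above 0.75 on both arrays, against 10.1% of all islands, were start islands except that of Mov10l1. limma called 0 of 23 against adult tissue, with 1, Spo11, at an unadjusted p under 0.05, where 0.191% of all islands were called. Ddx4 scored 3.45 and 3.60, Stk31 3.10 and 3.28, and Tdrd6 0.55 and 0.80. Spo11 scored 1.89 and 2.22, a difference of -0.61 ± 0.27 (limma adjusted p 0.58). Compared with the J1 array, 19 and 18 of the 23 islands were lower in the 2 teratomas, with median differences of -0.34 and -0.16. Of the 1004 islands methylated on every adult array 73.2% and 65.3% were lower, with medians of -0.27 and -0.17. The 23 include islands not methylated on every adult array, so the sets are unlike. The line of origin is given differently in labels and methods, and the scanner file of J1 is the one that correlated with adult arrays at up to 0.97.

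Ex vivo β cells, Min6 and aTC had 1 array each, so their values are given with no test. In β cells 19 of the 23 islands were above 0.75, where 12.7% of all islands were. In Min6 21 were (19.5%), and in aTC 22 (23.1%). On the IMS scale most of these islands were high but below their adult levels. Ddx4 scored 1.96 in β cells, 1.99 in Min6 and 2.10 in aTC, and Dazl 1.84, 2.10 and 2.11, all below the lowest adult array.

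In all, 13, 13 and 14 of the 23 islands lay below every adult array in β cells, Min6 and aTC, where 10.0%, 26.0% and 34.9% of all islands did. On the same arrays the 1004 islands methylated on every adult array had medians of 2.14, 1.94 and 1.71, against 2.33 to 2.94 on the adult arrays. As log2 ratios centred on each array's median, the 16 germline islands among them had medians of 2.35, 3.63 and 3.61, against 3.23 to 5.62 on the adult arrays. On that scale Ddx4 scored 2.28 in β cells, 3.82 in Min6 and 4.23 in aTC, against a lowest adult array of 2.88. Dazl scored 2.15, 4.01 and 4.26 in the same order, against 2.76. At these islands both lines were inside the adult range and β cells below it. Tdrd1, at 2.54 in Min6 and 2.74 in aTC, stayed below its lowest adult array of 2.76, as did Mov10l1 in Min6 (2.48 against 3.32). How far the scaling of each array enters the low scores was not tested.

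Several islands that are low in adult tissue stood higher in the lines. Stag3 scored 0.37 in β cells and 1.47 in both Min6 and aTC, above the highest adult array of 0.63. Tdrd6 scored 0.73, 1.58 and 1.60 in the same order, and the Sycp2 upstream island 0.89, 1.42 and 1.34. The distant Nanos3 island scored 0.71, 0.61 and 0.99. These 4 were above every adult array in Min6 and in aTC, where 16.2% and 19.9% of all islands were, and Nanos3 was the 1 island above it in β cells (11.6% of all). Figla stayed below 0 on all 34 arrays.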

How the data were processed

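The files hold 34 arrays of mDIP bound DNA (Cy5) against input (Cy3), scanned and extracted by the authors with Agilent Feature Extraction. The deposited log10 ratios of bound over input come from its processed signals, after background subtraction and linear dye normalisation, as per the file headers. The deposited files also hold median signal intensities and flags for probes well above background, used in alternatives. A deposited table, used as an alternative, holds the authors' score of each probe (a Z value), set by them against probes of like melting temperature. It is blank for many probes, for reasons not given, and its column medians ran from -0.32 to -0.013. Its direction was taken from its correlation with the scanner ratios (0.89 to 0.99 outside J1), and its exact scale is not stated. The genome build is not given in the sources used here.

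Probes were joined into islands (gaps of at most 500 bases, at least 3 probes, scored on all 34 arrays). Log10 ratios were converted to Z-scores per array and averaged over an island. Groups were taken from the labels. limma 3.58.1 (R 4.3.3; lmFit and eBayes) was fitted to all 13616 islands, with adult, embryo and both ES cell groups in 1 fit, and teratomas added for their own comparison. Adjustment was by Benjamini-Hochberg over all islands, with a threshold of 0.05. Tissues were compared by limma's F test on the adult arrays. Groups of 1 array were not tested. Python 3.11.15, numpy 2.4.6, pandas 2.3.3 and matplotlib 3.10.9 were used for scores and plots.

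Array values are given for up to 6 genes with the largest differences among those called in each comparison, for the 5 highest and 5 lowest adult means, and for Dazl, Ddx4, Sycp3, Mael, Tdrd1, Stra8, Nanos3 and Dnd1. The rule also named Dppa3, Prdm9 and Zp3, which have no probe. The members and lists were chosen with earlier results of these data known. Tested on simulated data with 200 of 13616 islands shifted by 1, the fit recovered, in comparisons with adult tissue, 94.5% of them for differentiated and 90.0% for undifferentiated ES cells, 92.0% for embryos and 84.0% for teratomas. Alternatives were other probe summaries, scalings and background corrections, filters on dim probes or small islands, slide or scan day (23 slides, 16 scan days) as a block, the methods' t-test, the deposited table, and each array left out in turn.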

Additional observations from a re-analysis of the deposited data

Results flagged for a closer look

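Of the 46 groups of 5 arrays looked at (23 islands, embryos and differentiated ES cells), 8 held an array whose gap to the nearest other exceeded Dixon's limit. In independent sets of replicates about 1 in 20 would. The arrays of a group are different days or cultures, and the same arrays recur at every island. The count therefore cannot be set against that rate. The embryo of 8.5 days was the far array in 4 of them, at 2.29 in Ddx4 (the others 3.43 to 3.66), 3.17 in Tuba3a (3.60 to 3.71), 1.69 in Boll (2.28 to 2.47) and, on the high side, 2.54 in Brdt (1.62 to 1.77). The array with retinoic acid treated cells was far in Hormad1, at 3.63 (2.08 to 2.52), and in Nanos3, at -0.18 (0.72 to 0.81). Endoderm replicate 1 was far in Ddx4, at 1.40 (2.67 to 2.88), and endoderm replicate 2 in Dmc1, at 1.54 (1.23 to 1.27).

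At 5 islands every culture derived from EB5 moved one way from its parent line and every culture labelled as from TT2 the other way. This difference was not tested, and the share of all islands with such a pattern is not given here. All changes from a line rest on its single array. Of the 1004 islands methylated on every adult array, 60.9%, 54.2% and 58.3% lay below EB5 in endoderm replicate 1, endoderm replicate 2 and mesoderm. Below TT2 lay 46.2% in embryoid bodies and 15.0% after retinoic acid. The mean changes from EB5 and from TT2 were -0.98 and 0.49 for Mov10l1, -0.65 and 0.53 for Sycp1, -0.79 and 0.26 for Sycp3, -0.55 and 0.79 for Hormad1, and 0.33 and -0.32 for Figla.

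The lines Min6 and aTC, which enter no test, scored above every adult array at islands that are not methylated throughout adult tissue. Of all islands, 16.2% in Min6 and 19.9% in aTC were above every adult array, near the share among the 23. The Sycp2 upstream island scored 1.42 in Min6 and 1.34 in aTC (highest adult array 1.32), Tdrd6 1.58 and 1.60 (1.51) and Stag3 1.47 in both (0.63). Nanos3 scored 0.61 in Min6 and 0.99 in aTC (0.31).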

How the results depend on the processing

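The differences called and described by array (6 for differentiated ES cells against adult tissue, 2 against undifferentiated ES cells) kept their sign under all alternatives run. Among differences not called, some turned. In the deposited table, differentiated minus undifferentiated ES cells became 0.42 for the Sycp2 start island, 0.27 for Mael, 0.048 for Dazl and 0.051 for Sycp3 (from -0.63, -0.50, -0.76 and -0.52), and undifferentiated ES cells minus adult tissue became -0.44 for Dazl (from 0.40). J1 was low in that table. The Sycp2 start island scored 3.66 in EB5, 3.16 in TT2 and 0.62 in J1, Dazl 4.63, 3.74 and 0.94, Sycp3 3.27, 2.83 and 1.29, and Mael 2.91, 2.51 and 1.55. The part of J1 in these changes was not tested. With the scanner ratios and without J1, Hormad1 went from -0.18 to 0.036 for differentiated minus undifferentiated cells. The 0 calls for embryos, teratomas and adult tissues stayed at 0 under all alternatives run. For differentiated ES cells against adult tissue, the 15 calls became 9 of 15 islands with at least 5 probes, 5 of the 12 islands scored in the deposited table and 3 with normexp on median signals (an alternative chosen after seeing the data, in which Ddx4, the Sycp2 start island, Stk31 and Slc25a31 were not called), and 10 to 14 with 1 array left out, fewest without endoderm replicate 1. Of all islands scored, 21%, 22.3% and 12.8% were called in the same order, and 21.6% without endoderm replicate 1. For differentiated against undifferentiated ES cells, the 2 calls became 1 with at least 5 probes, with centred log2 ratios, with dim probes left out and with normexp on median signals, 1 with slide as a fixed block (a higher island, with 0 lower), 4 with scan day as a fixed block, 0 with only the groups compared and 0 with the methods' t-test. Of all islands scored, 4.84%, 1.67%, 6.79%, 0.404%, 1.35%, 4.72%, 0.0294% and 0% were called in the same order. With the deposited values 3 of 12 were called, all higher and 0 lower (Stk31, Boll and Tdrd6), where 22.7% of its islands were called. Leaving out 1 array gave 1 to 7, the most without retinoic acid, where 10% of all islands were called. For undifferentiated ES cells against adult tissue, the 0 calls became 5 in the deposited table, 2 with dim probes left out, 1 with the median of probes, 2 with slide as a fixed block and 1 with slide as a random block, and 0 to 5 with 1 array left out, 5 without J1. Of all islands scored, 26.4%, 2.81%, 2.32%, 2.27% and 2.67% were called in the same order, and 8.45% without J1. Against embryos the 0 calls became 5 in the deposited table (16.3% of its islands called) and 0 to 4 with 1 array left out, 4 without J1 (5.92%). The 16 islands methylated on every adult array became 8 of 12 in the deposited table and 9 of 15 with at least 5 probes, and 16 to 17 with 1 array left out. The settings with fewer islands could call fewer, and the cause of the other changes was not tested.

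With the replicate number as a block (replicate block), the F test over tissues called 0 of the 23 islands. Same-numbered arrays of 2 tissues deviated together at r = -0.25 to 0.63 (median 0.11 over 28 pairs of tissues, 14 of them over 0.1), so any pairing was not uniform. In brain, kidney, liver, lung, muscle and spleen, replicate 1 was on the larger grid and scanned on the same day. Replicate 2 of each was on the smaller grid. For these tissues the replicate number cannot be told apart from the array design. In all of them but lung, replicate 1 was female and replicate 2 male, so sex cannot be told apart from these either. Not run were normexp on mean signals, which some arrays lack, and slide and scan day as fixed blocks for teratomas and for the tissues, which could not be estimated. Signal over background limits Brdt most, with 58.3% of its adult probe values well above background in the input.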
